A study of Mus musculus with 8 samples.

Results

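The S100 calcium binding proteins are a family of small proteins that pair up and carry EF hands, the helix-loop-helix fold that holds calcium. 9 members were described here, taken by symbol from the 22173 genes of the expression table: S100a1, S100a4, S100a6, S100a8, S100a9, S100a10, S100a11, S100a13 and S100a16. Each was matched to a protein-coding gene of the mouse RefSeq annotation (GRCm38.p6), where all 9 lie on chromosome 3. The tissue was heart of C57BL/6J mice whose left anterior descending coronary artery had been ligated, the operation that infarcts the left ventricular wall, and all 8 libraries came from ligated hearts, with none from an unoperated heart. 4 libraries came from mice given DAPA (the usual short form of dapagliflozin, a blocker of the kidney glucose cotransporter SGLT2) in a daily dose of 1 mg/kg that was kept up for 4 weeks from the operation, and 4 from mice given vehicle. The labels state neither the age or sex of the mice nor which part of the heart was taken, and nothing in them says that each library is a separate animal, so the p-values measure the spread between these libraries.

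S100 proteins change shape when calcium binds and then grip other proteins, so that they act as sensors inside the cell. S100a1 is the member best known from heart muscle, where it binds the ryanodine receptor and the calcium pump SERCA2a. S100a8 and S100a9 form calprotectin, which neutrophils and monocytes carry in bulk and release, and which then acts on the receptors TLR4 and RAGE of other cells. Levels are given in FPKM, a unit in which the authors divided each gene's fragments by its length and by the library's mapped total, so that genes can be compared per length.

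S100a16, a member made in many tissues, was slightly higher with DAPA, and no other member of the family passed the test. Of the 9 members, all of which had a mean of at least 1 FPKM in a group and so entered the test, 1 rose (S100a16), none fell, and 8 did not pass the threshold (limma-trend on log2(FPKM + 1), Benjamini-Hochberg adjusted p below 0.05 over 11496 genes). That is 11.1% of the members, beside 18.4% of all genes tested, 9.62% of which were higher and 8.75% lower. At an unadjusted p below 0.05 there were 3 members, S100a16, S100a8 and S100a9, beside 31.3% of all genes. The median log2 change was -0.03 over the members and 0.01 over all genes tested, and the median size of the change was 0.09 and 0.08. The libraries of the groups did not overlap for 1 member, S100a16, beside 22.1% of all genes. In the authors' deposited table, whose test is their own but on the same libraries, S100a16 was also the 1 member with a q-value below 0.05, beside 17.4% of the 15527 genes given a q-value there. The call of S100a16 was close to the threshold and held in 7 of the 16 alternative fits described below.

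**Figure D1:**
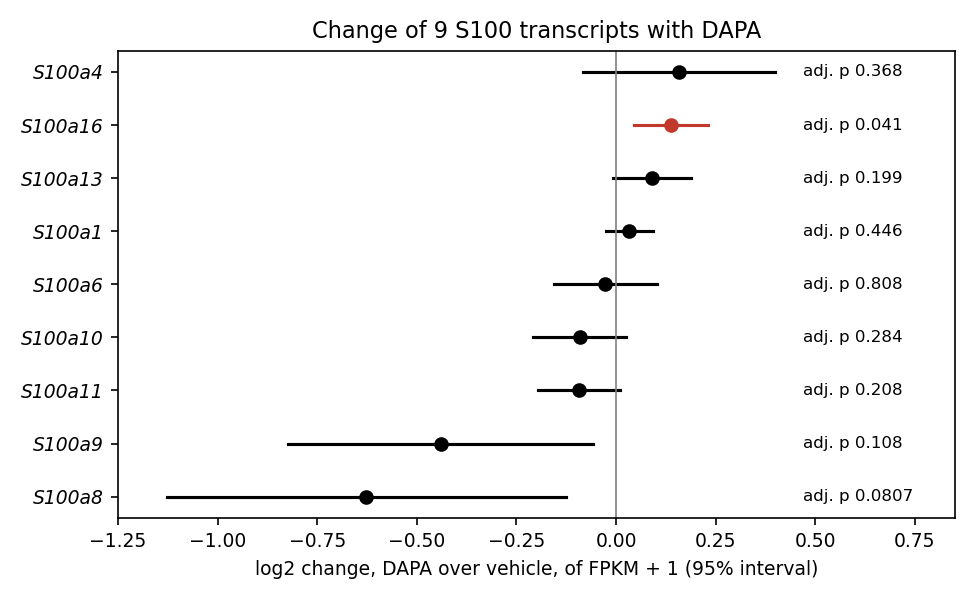
Change of the 9 S100 transcripts with DAPA. Each point is the log2 change of FPKM + 1, DAPA over vehicle, and the line is its 95% interval from limma-trend (4 libraries a group); red marks an adjusted p below 0.05. The interval of S100a16 lies above 0 and those of S100a8 and S100a9 below it, but the adjusted p of S100a8 (0.0807) and of S100a9 (0.108) is over the threshold.

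The family's levels spanned a wide range, and S100a1 alone made up most of it. S100a1 held 64.2% to 67.2% of the summed FPKM of the 9 members in each library. That sum was 2045.9 ± 27.5 FPKM in DAPA libraries and 2031.4 ± 83.1 FPKM in vehicle libraries (mean ± SD, n = 4 each). By mean FPKM over the 8 libraries, S100a1 ranked 46 among all genes of the table. Next came S100a11, S100a6 and S100a10, at ranks 408, 414 and 430, whose libraries overlapped each other in both groups, so that their order was not settled. S100a13, S100a16 and S100a4 followed in that order, and each stood apart from its neighbours in both groups. S100a9 and S100a8 came last, at ranks 9308 and 9388, with overlapping libraries. The step above that pair was the widest in the order, 16.2-fold from S100a4 to S100a9 in DAPA libraries and 9.24-fold from S100a4 to S100a8 in vehicle libraries.

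**Figure D2:**
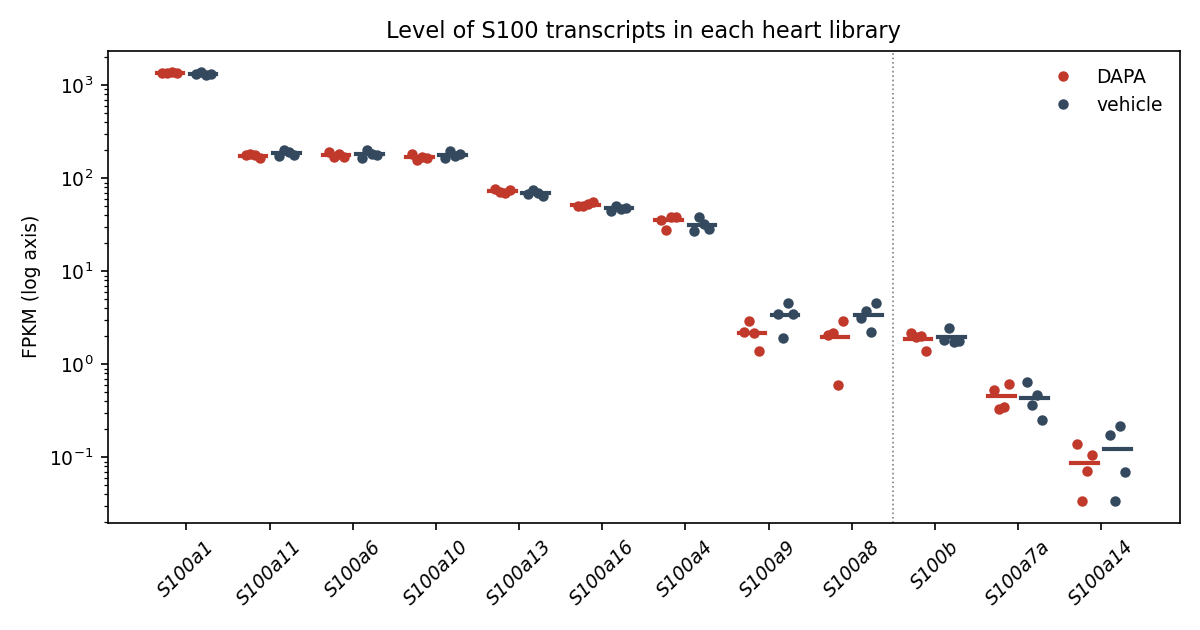
Level of S100 transcripts in each heart library, in FPKM on a log axis, with the 9 members left of the dotted line and 3 other S100 genes right of it. Points are libraries and bars group means (4 DAPA, 4 vehicle). S100a1 lies between 1280 and 1381 FPKM in all 8 libraries, while S100a8 and S100a9 lie below 5 FPKM.

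S100a1 (NCBI Gene 20193) was the most even member. It measured 1349, 1358, 1378 and 1354 FPKM in DAPA libraries 1 to 4, against 1322, 1381, 1280 and 1333 FPKM in vehicle libraries 1 to 4. The DAPA libraries lay inside the range of the vehicle libraries. The log2 change was 0.03 with a 95% interval of -0.03 to 0.09 (SE 0.03, limma-trend adjusted p = 0.446), and the coefficient of variation was 0.925% in DAPA and 3.13% in vehicle libraries. Its muscle partners did not pass the test either. Ryr2, the ryanodine receptor that releases calcium from the sarcoplasmic reticulum, averaged 34.0 ± 0.292 FPKM with DAPA and 34.4 ± 1.47 with vehicle (adjusted p = 0.865). Atp2a2, which encodes SERCA2, averaged 1089 ± 8.36 and 1110 ± 20.7 FPKM with DAPA and with vehicle (adjusted p = 0.501). Of 13 ventricular cardiomyocyte markers in these libraries none rose and 3 fell, beside 18.4% of all genes tested that passed in either direction. Among those that fell was the actin gene Actc1, to 6152 ± 116 FPKM with DAPA against 7413 ± 107 with vehicle. The part of those falls in the S100a1 value was not tested. In whole tissue, fewer cells of a type and less RNA per cell cannot be told apart, here or in any value below.

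S100a13 (20196), which takes part in the release of the signal-peptide-lacking factors FGF1 and interleukin-1 alpha, measured 77.3, 71.2, 70.4 and 75.6 FPKM in DAPA libraries, against 67.8, 74.5, 69.5 and 64.7 FPKM in vehicle libraries. The groups overlapped, and the change of 0.09 (95% interval -0.01 to 0.19) did not pass (limma-trend adjusted p = 0.199). Its cargo Fgf1 averaged 7.83 ± 0.258 FPKM with DAPA and 7.92 ± 0.391 with vehicle (adjusted p = 0.889). S100a1 and S100a13 are neighbours in RefSeq on opposite strands. From the start sites used for the sequence below they run apart, but the RefSeq span of S100a13 begins at a further start, inside S100a1, so that the annotated spans overlap. The library kit keeps the strand, but no source used here states that the counting made use of it, so reads from the overlap could have gone to either gene. The 104 bases between the start sites of their RefSeq promoter windows are shown because both genes start from its ends while their mean FPKM over the 8 libraries differed 18.8-fold. They are written 5′ to 3′ on the minus strand, which is the strand of S100a1 (RefSeq, GRCm38.p6, chr3:90514331-90514434), with the S100a13 start beyond the left end.
S100a1 and S100a13, between starts: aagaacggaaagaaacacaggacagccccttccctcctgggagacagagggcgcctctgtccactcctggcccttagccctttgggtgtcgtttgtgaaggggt
None of the 3 motifs searched lies in this interval on either strand: the TATA box TATAAA, the CCAAT box CCAAT and the GC box GGGCGG. Of 32851 RefSeq promoter stretches of the same length just before a start site, 5.69% hold the first, 19.4% the second and 25.1% the third.

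The members that bind annexins did not pass the test. S100a10 (20194), also called p11, is the partner of annexin A2 and differs from the rest of the family in no longer binding calcium. It measured 183, 157, 168 and 163 FPKM in DAPA libraries, against 167, 197, 172 and 181 FPKM in vehicle libraries, and the groups overlapped (log2 change -0.09, 95% interval -0.21 to 0.03, limma-trend adjusted p = 0.284). S100a11 (20195), a partner of annexin A1, measured 179, 181, 176 and 164 FPKM in DAPA libraries, against 174, 202, 193 and 178 FPKM in vehicle libraries. Its groups overlapped as well (-0.09, 95% interval -0.20 to 0.01, adjusted p = 0.208). RefSeq also annotates a pseudogene of it, S100a11-ps, and no source used here states how reads that match both were assigned. S100a6 (20200), or calcyclin, binds annexin A11 and the calcyclin-binding protein Cacybp. It measured 191, 170.2, 182 and 168 FPKM in DAPA libraries, against 163, 204, 182 and 177 FPKM in vehicle libraries. The vehicle libraries spread over a wider range than the DAPA libraries and enclosed them (-0.03, 95% interval -0.16 to 0.10, adjusted p = 0.808).

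Of 12 genes for intracellular partners of S100 proteins, 11 were tested, 2 rose and none fell, a share close to the 18.4% of all genes tested, and the median log2 change was -0.01. Both that rose encode proteins that S100a6 binds. Anxa11, annexin A11, averaged 35.3 ± 0.392 FPKM with DAPA and 29.4 ± 0.435 with vehicle, with no overlap (log2 change 0.26, SE 0.03, limma-trend adjusted p = 8e-05). Cacybp averaged 42.7 ± 1.01 FPKM with DAPA and 38.2 ± 0.891 with vehicle, again with no overlap (0.16, SE 0.03, adjusted p = 0.00536). Sugt1, a further binding partner of S100a6, averaged 23.6 ± 1.12 FPKM with DAPA and 23.9 ± 1.3 with vehicle, and did not pass (adjusted p = 0.848). The partners of the other annexin-binding members did not pass, with Anxa2 at 133 ± 2.28 and 129 ± 8.22 FPKM and Anxa1 at 85.8 ± 3.38 and 89.8 ± 6.13 FPKM in DAPA and vehicle libraries (adjusted p = 0.572 and 0.395). Anxa6, a further annexin gene of the list, averaged 78.9 ± 2.2 FPKM with DAPA and 77.4 ± 2.19 with vehicle (adjusted p = 0.615). Syt1 was the partner gene too low to test, with 19 reads in DAPA and 11 in vehicle libraries.

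S100a4 (20198), metastasin, is carried by fibroblasts, macrophages and other motile cells and binds the non-muscle myosin encoded by Myh9. It measured 35.8, 28.0, 38.6 and 38.4 FPKM in DAPA libraries, against 26.8, 38.5, 32.3 and 28.3 FPKM in vehicle libraries. 3 DAPA libraries lay above 3 of the vehicle libraries, while DAPA library 2 was low and vehicle library 2 was high. The change of 0.16 had a 95% interval of -0.08 to 0.40 and did not pass (limma-trend adjusted p = 0.368). Without vehicle library 2 it was 0.26, and without DAPA library 2 also 0.26, at adjusted p = 0.1 and 0.0938. Leaving out any other library gave a change of 0.09 to 0.18 (adjusted p between 0.396 and 0.652). Myh9 averaged 36.6 ± 1.05 FPKM with DAPA and 37.7 ± 1.12 with vehicle (adjusted p = 0.499). In the same libraries, 2 of 12 fibroblast markers rose and 4 fell, 1 of 11 activated fibroblast markers rose and 4 fell, and 6 of 15 macrophage markers rose and 2 fell. Over all genes tested, 18.4% passed in either direction. The macrophage count of 8 was 5 without DAPA library 1 or 4 or vehicle library 1, 3 or 4 and under quantile normalisation, and 4 with no filter on low values. The activated fibroblast count of 5 was 9 with limma voom on recovered reads. Summed FPKM of the activated fibroblast list lay between 856 and 927 in DAPA libraries and between 1023 and 1097 in vehicle libraries, and their part in the S100a4 values was not tested.

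S100a16 (67860) was the member that rose, by a small amount. In mouse preadipocyte cultures this protein favours the formation of fat cells. It measured 50.7, 50.5, 52.4 and 55.0 FPKM in DAPA libraries, against 44.1, 50.0, 47.3 and 48.1 FPKM in vehicle libraries. Every DAPA library was above every vehicle library, though DAPA library 2 and vehicle library 2 stood only 0.536 FPKM apart. The means were 52.2 ± 2.08 and 47.4 ± 2.48 FPKM, a ratio of 1.10 (log2 change 0.14, SE 0.04, 95% interval 0.04 to 0.23, limma-trend adjusted p = 0.041). In the authors' deposited table the fold was 1.09 and the q-value 0.0434. The call was close to the threshold. Leaving out DAPA library 1, 3 or 4, or vehicle library 1, 3 or 4, ended it, with adjusted p between 0.0529 and 0.12, and it remained without DAPA library 2 (0.0482) and without vehicle library 2 (0.0202). Adipocyte markers fell in the same libraries, 10 of 10 tested with none higher, and their summed FPKM lay between 1199 and 1269 with DAPA and between 1699 and 1930 with vehicle. The part of these markers in the S100a16 value was not tested.

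**Figure D3:**
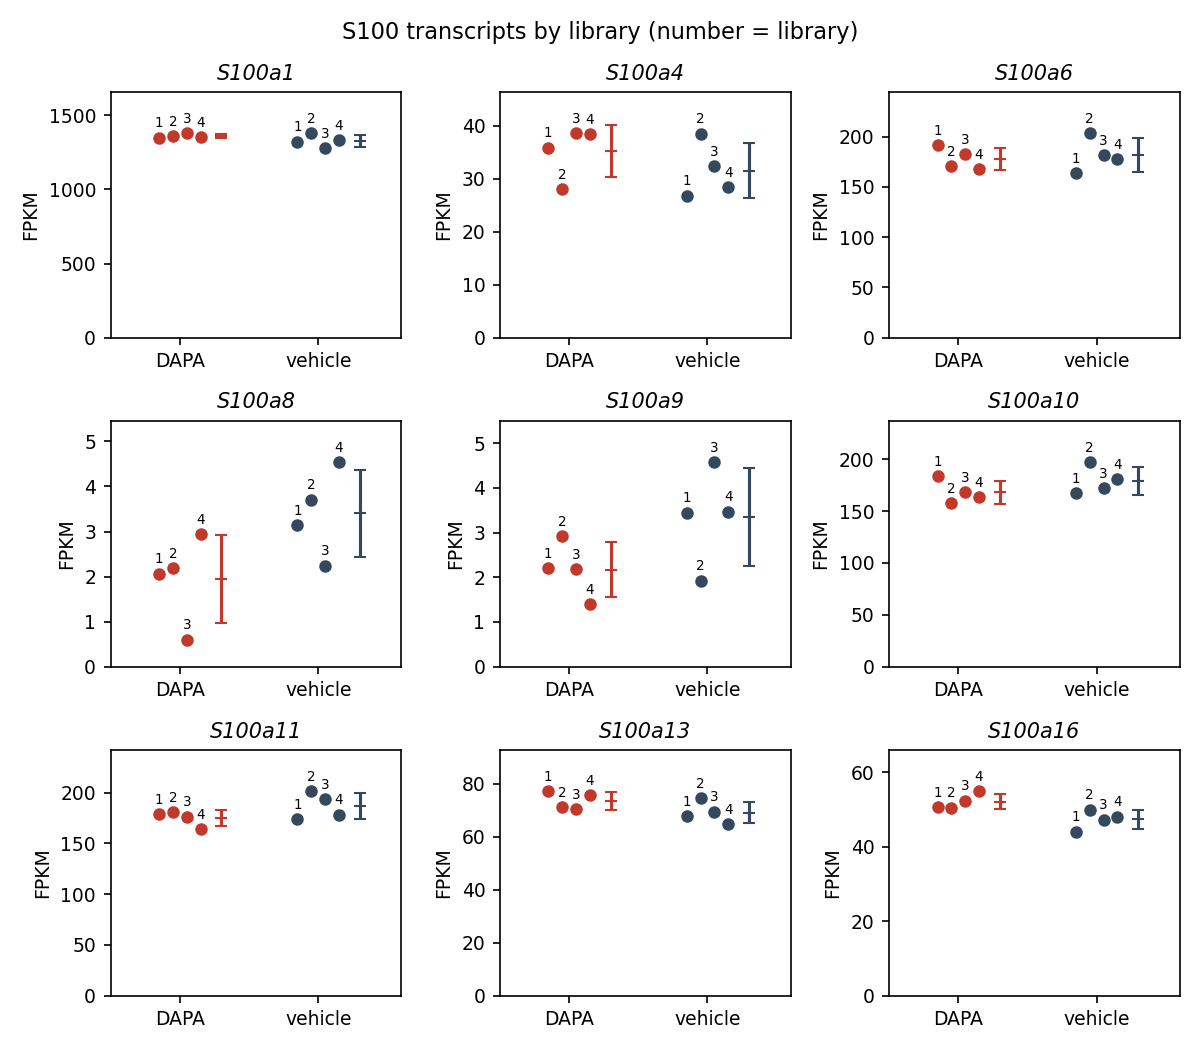
FPKM of each S100 member in DAPA and vehicle libraries, with axes from 0, the library number above each point and the mean ± SD beside it (n = 4 a group). The groups overlap in 8 panels and are apart in that of S100a16. Vehicle library 2 is the highest vehicle library for 7 of the 9 members, a count not taken over all genes.

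The library-to-library pattern was shared by several members. Vehicle library 2 had the highest value among the vehicle libraries for 7 of the 9 members, all but S100a8 and S100a9. The same count was not taken over all genes. Over genes with enough reads to compare, this library also differed most from its group. Chi-square per degree of freedom, about 1 from counting alone, was 5.85 to 7.94 in its pairs. It was 4.15 to 4.39 in the other vehicle pairs, so the pattern is not shown to be particular to the members. In the DAPA group no library stood out in that way, since libraries 1 to 4 were highest for 3, 2, 2 and 2 members. The spread relative to the mean was smallest for S100a1 and was 3.98% to 9.17% in either group for S100a6, S100a10, S100a11, S100a13 and S100a16. It reached 14.1% in DAPA and 16.6% in vehicle libraries for S100a4, 50.2% and 28.4% for S100a8, and 28.7% and 32.6% for S100a9. Few reads stood behind each value of the last pair.

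S100a8 and S100a9, the calprotectin subunits, had the largest estimates in the family, both towards lower values with DAPA, and neither passed the test. S100a8 (20201) measured 2.06, 2.19, 0.602 and 2.94 FPKM in DAPA libraries, against 3.13, 3.71, 2.25 and 4.55 FPKM in vehicle libraries. Those values rest on 21, 23, 6 and 30 reads with DAPA and on 32, 39, 22 and 47 reads with vehicle. 3 of the 4 DAPA libraries were below all vehicle libraries, and DAPA library 4 was above vehicle library 3. The change was -0.63 on the log2(FPKM + 1) scale, which understates low genes (SE 0.23, 95% interval -1.13 to -0.13, limma-trend adjusted p = 0.0807), and the ratio of mean FPKM was 0.572. Leaving out DAPA library 4 or vehicle library 3 brought it past the threshold (adjusted p = 0.035 and 0.047), and without DAPA library 3, the lowest, the change was -0.36 (adjusted p = 0.148).

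S100a9 (20202) measured 2.21, 2.92, 2.18 and 1.39 FPKM in DAPA libraries, against 3.44, 1.92, 4.58 and 3.47 FPKM in vehicle libraries, on 30, 41, 29 and 19 reads and on 47, 27, 60 and 48 reads. 3 vehicle libraries were above every DAPA library, and vehicle library 2 was below 3 DAPA libraries. The change was -0.44 (SE 0.18, 95% interval -0.82 to -0.06, adjusted p = 0.108), the ratio of means 0.648, and without vehicle library 2 the change was -0.62 (adjusted p = 0.0104). Without DAPA library 4, or without vehicle library 3, the change was -0.31 (adjusted p = 0.266 and 0.261). The subunits did not rank the libraries alike. Vehicle library 3 had the lowest S100a8 and the highest S100a9 of its group, and DAPA library 4 had the highest S100a8 and the lowest S100a9. Summed over libraries, 80 S100a8 reads with DAPA and 140 with vehicle gave a ratio of 0.572 after scaling to total reads, with an exact binomial 95% interval of 0.429 to 0.758. For S100a9, 119 and 182 reads gave 0.654 (0.515 to 0.828). These intervals cover counting error only. The variance of depth-scaled reads between libraries was 5.01 times the mean with DAPA and 2.81 times with vehicle for S100a8, and 2.44 and 4.86 times for S100a9, where counting alone gives about 1.

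**Figure D4:**
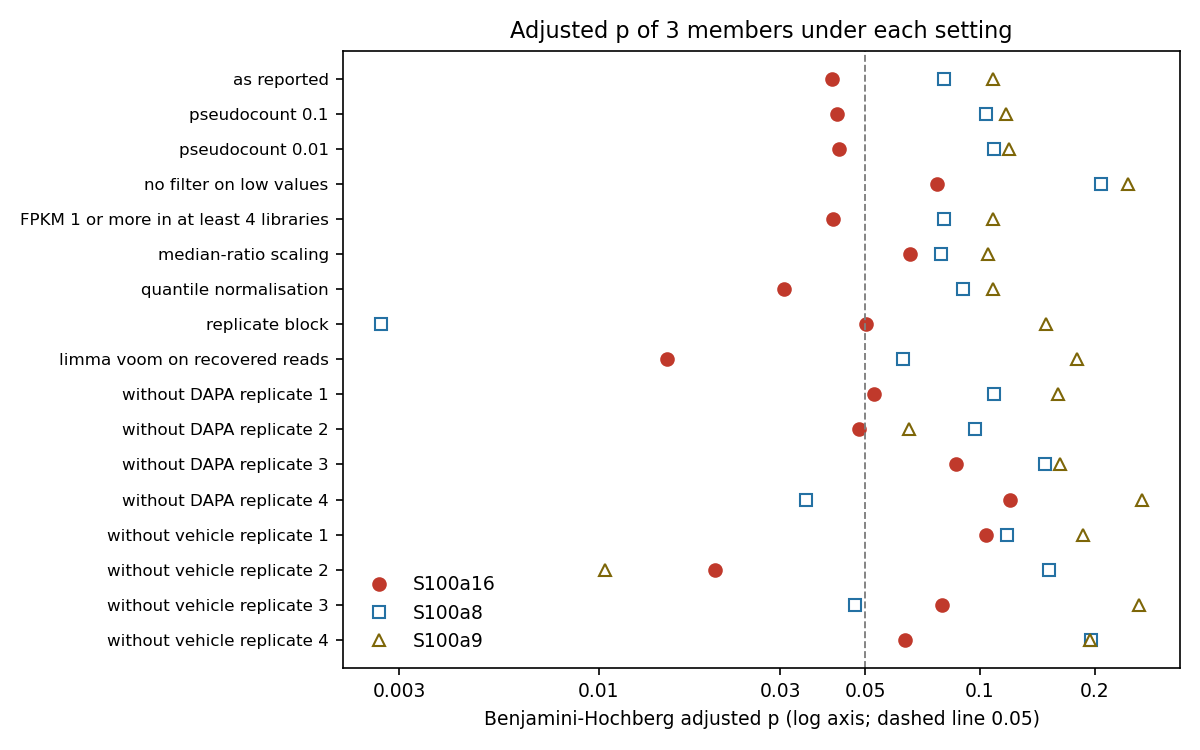
Benjamini-Hochberg adjusted p (log axis) of S100a16, S100a8 and S100a9 in the reported test and in 16 alternatives, one row each, with a dashed line at 0.05. S100a16 lies on both sides of the line, from 0.0151 to 0.12, while S100a8 is under it in 3 alternatives and S100a9 in 1.

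The stretches upstream of the calprotectin genes are shown because the pair had the lowest levels and the largest estimates. Each holds the 250 bases before the RefSeq start site (GRCm38.p6), 5′ to 3′ on the strand of its gene, with matches to the 3 motifs in capitals. S100a8 is at chr3:90668821-90669070 on the plus strand, and S100a9 at chr3:90695722-90695971 on the minus strand.
S100a8 upstream: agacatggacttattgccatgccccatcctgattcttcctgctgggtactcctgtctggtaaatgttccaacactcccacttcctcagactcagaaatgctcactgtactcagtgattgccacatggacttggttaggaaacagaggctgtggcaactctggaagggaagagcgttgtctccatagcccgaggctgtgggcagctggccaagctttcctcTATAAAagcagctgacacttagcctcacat
S100a9 upstream: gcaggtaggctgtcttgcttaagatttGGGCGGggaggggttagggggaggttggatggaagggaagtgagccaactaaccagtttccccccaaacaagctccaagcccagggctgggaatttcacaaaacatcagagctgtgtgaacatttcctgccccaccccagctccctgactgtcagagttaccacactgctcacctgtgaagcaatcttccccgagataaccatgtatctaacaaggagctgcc
The S100a8 stretch holds 1 TATA box (TATAAA), which 12.4% of the 32851 upstream stretches of that length also hold on either strand, and no CCAAT or GC box. The S100a9 stretch holds 1 GC box (GGGCGG), as do 32.7% of them, and neither of the others. A match of letters is a description and not a binding site. A promoter window was held for 8 of the 9 members, all but S100a10.

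Most transcripts that mark neutrophils, the main carriers of calprotectin, had fewer reads than S100a8 or S100a9. Of 18 neutrophil markers, Camp was at 0 in all libraries, and Ly6g had 5 reads in the 4 DAPA libraries and 2 in the vehicle libraries. The granule genes Elane and Mpo had no reads with DAPA and a value in 1 vehicle library each, counted as 1 read, the least it can stand for. Retnlg had 5 reads with DAPA and 27 with vehicle, and Mmp9, a matrix-cutting enzyme of neutrophil granules, 40 and 215. Padi4 had 257 reads with DAPA and 268 with vehicle, Fpr1 40 and 39, and the granule gene Ltf 10 and 1. The summed FPKM of the list lay between 14.3 and 16.3 in DAPA libraries and between 12.4 and 14.4 in vehicle libraries, and most of it came from Lcn2, which many cell types make. Only Csf3r and Lcn2 reached the level for testing. Csf3r, the receptor of the neutrophil growth factor, averaged 0.867 ± 0.124 FPKM with DAPA and 1.10 ± 0.0525 with vehicle, with no overlap (log2 change -0.17, limma-trend adjusted p = 0.115). Lcn2 rose, to 12.4 ± 1.16 FPKM with DAPA against 9.02 ± 1.26 with vehicle (0.42, adjusted p = 0.00349). When every gene with a value above 0 was tested, Mmp9 and the decoy receptor Il1r2 were lower with DAPA (adjusted p = 0.0274 and 0.0239) and Lcn2 higher (0.0229), while S100a8 and S100a9 did not pass (0.208 and 0.245). Among 8 monocyte markers 4 were tested and 1 fell, Plac8, to 0.461 ± 0.116 FPKM with DAPA against 1.54 ± 0.164 with vehicle (adjusted p = 1.27e-05). The other tested markers did not pass and had estimates in both directions. The log2 change was 0.21 for Ccr2, -0.25 for Ly6c2 and -0.01 for Itgam (adjusted p = 0.159, 0.205 and 0.937). The summed monocyte list lay between 8.61 and 10.3 FPKM with DAPA and between 10.1 and 11.1 with vehicle. The part of neutrophil and monocyte markers in the S100a8 and S100a9 values was not tested.

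**Figure D5:**
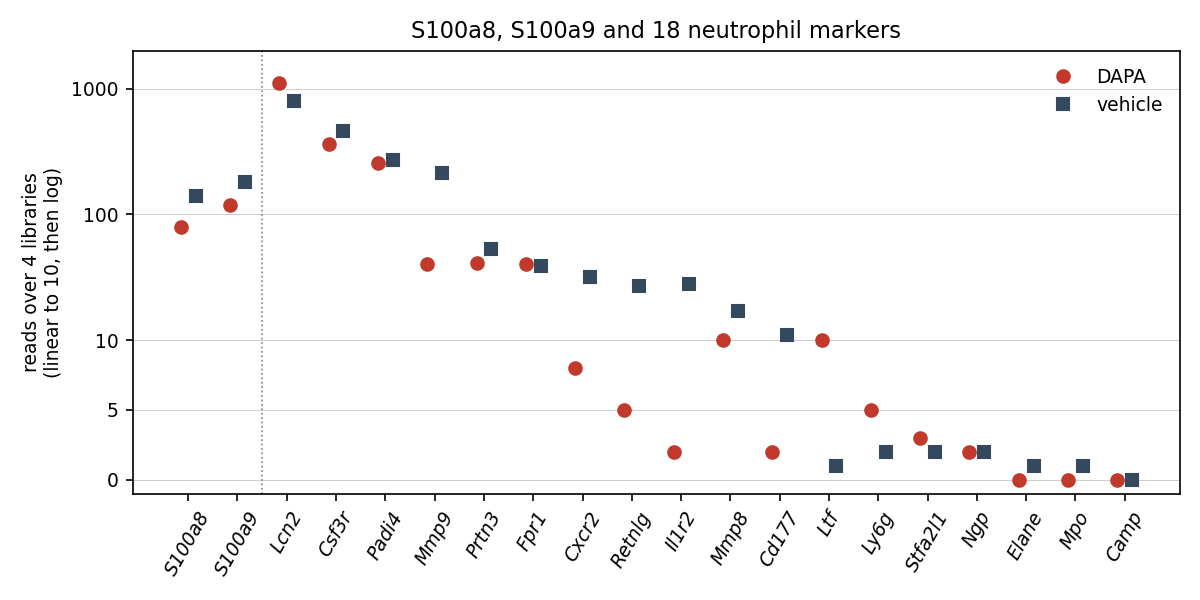
Reads summed over the 4 libraries of each group for S100a8, S100a9 (left of the dotted line) and 18 neutrophil markers, on an axis that is linear to 10 and logarithmic above. S100a8 has 80 reads with DAPA and 140 with vehicle, S100a9 119 and 182, and Mmp9 40 and 215.

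Of 5 receptors that extracellular S100 proteins act on, 4 were tested and none passed. Ager, which encodes RAGE, was too low to test, at 0.518 ± 0.126 FPKM with DAPA and 0.565 ± 0.201 with vehicle on 90 and 98 reads. Of the 4 receptors tested, Tlr4 averaged 4.19 ± 0.334 FPKM with DAPA and 3.86 ± 0.175 with vehicle (limma-trend adjusted p = 0.338). Bsg (basigin), which binds S100a9, averaged 833 ± 12.5 and 836 ± 9.39 FPKM in DAPA and vehicle libraries (adjusted p = 0.928). Cd36, a scavenger receptor, averaged 357 ± 8.21 and 353 ± 9.79 FPKM (adjusted p = 0.795). Mcam, an adhesion molecule of vessels that binds calprotectin, averaged 26.0 ± 0.899 FPKM with DAPA and 23.9 ± 0.859 with vehicle. Its libraries did not overlap, and its change of 0.12 missed the threshold (adjusted p = 0.0585). It passed without vehicle library 1 (0.0344) and with limma voom on recovered reads (0.0382), within a range of 0.0344 to 0.157 over the 16 alternatives. In these libraries 9 of 11 endothelial markers rose and 1 fell, and their part in the Mcam value was not tested. Of 12 genes that act with or below TLR4, 1 rose and 1 fell, a share close to the 18.4% of all genes tested. Ly96, the partner of TLR4 also called MD-2, averaged 6.57 ± 0.653 FPKM with DAPA and 4.56 ± 1.45 with vehicle (0.48, adjusted p = 0.0461). Its libraries overlapped, and the call ended without any 1 of the 4 DAPA libraries or of vehicle libraries 1 and 2 (adjusted p between 0.0139 and 0.14 over all 16 alternatives). Nfkbia, the inhibitor of NF-kappaB that the same factor induces, fell to 34.9 ± 1.32 FPKM with DAPA against 55.7 ± 1.4 with vehicle (-0.66, adjusted p = 5.2e-08).

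Of 15 EF-hand genes outside the family 2 rose and 1 fell, a share close to the 18.4% of all genes tested, with a median log2 change of 0.04. The genes that rose were Efhd1, a mitochondrial calcium sensor, at 3.52 ± 0.237 FPKM with DAPA against 1.50 ± 0.678 with vehicle (limma-trend adjusted p = 7.43e-04), and its relative Efhd2, at 46.9 ± 2.08 with DAPA against 42.2 ± 0.394 with vehicle (adjusted p = 0.0112). Hpcal1, of the neuronal calcium sensor group, fell to 12.5 ± 0.538 FPKM with DAPA against 16.4 ± 1.15 with vehicle (adjusted p = 2.93e-04).

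The rest of the S100 genes in the table were weakly expressed. There are 9 of them, and 1 reached the level for testing. That was S100b, a marker of Schwann cells and other glia, at 2.16, 1.95, 2.04 and 1.41 FPKM in DAPA libraries, against 1.85, 2.47, 1.76 and 1.80 FPKM in vehicle libraries (log2 change -0.04, 95% interval -0.25 to 0.17, limma-trend adjusted p = 0.827). Of 8 further Schwann cell markers 5 were tested and all 5 rose, 3 without DAPA library 1, 2 or 4 or vehicle library 1 or 2, and whether they differed from S100b was not tested. Among them was the transcription factor gene Sox10 (log2 change 0.43, adjusted p = 0.00429). The call of the myelin gene Mbp was lost in 9 of the 16 alternatives, most of them fits without 1 library (adjusted p up to 0.114). S100a7a had 101 reads in DAPA and 96 in vehicle libraries, S100a3 had 12 and 21, S100a14 had 10 and 14, and S100g 1 and 4. S100a5 had none with DAPA and a value in 1 vehicle library, counted as 1 read, the least it can stand for. S100a2, S100a7l2 and S100z had no read in any library, and a count of 0 allows up to 3 reads.

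Genes whose levels followed the members most closely over the 8 libraries were ranked by Pearson correlation of log2(FPKM + 1) among 11495 candidates, as a description. For S100a16 they were Ociad1, Aamp and Hexa (r = 0.98, 0.97 and 0.96), for S100a8 Uri1, Memo1 and Fbxo5 (r = 0.98, 0.95 and 0.93), and for S100a9 Pcgf5, Kcnab2 and Hivep2 (r = 0.96, 0.94 and 0.93). These ranks were taken over few libraries and many candidates. S100a8 and S100a9 were not on each other's list.

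Reads behind the FPKM values came to between 24939013 and 26768206 per library, and the groups did not pass a test of their totals (exact two-sided permutation p = 0.943 over 70 assignments). Genes with a value above 0 numbered 15755 to 15799 in DAPA libraries and 15687 to 15725 in vehicle libraries, without overlap (exact two-sided permutation p = 0.0286, the smallest it can give, and 0.0571 adjusted over the 2 measures). The same libraries differed in atrial markers, of which 13 of 13 rose, and in adipocyte markers, as given above, and 6 of 10 tested epicardial and mesothelial markers rose with none lower. Summed FPKM of the atrial list lay between 13211 and 13925 with DAPA and between 8265 and 9211 with vehicle. Most of that sum came from Nppa, at 12070 ± 305 FPKM with DAPA and 8481 ± 447 with vehicle. Some other atrial genes were nearly absent with vehicle. Sln averaged 312 ± 19.1 FPKM with DAPA and 0.278 ± 0.41 with vehicle, and Myl7 603 ± 27.8 and 1.34 ± 1.1. Pam, by contrast, averaged 226 ± 3.49 and 146 ± 1.57 FPKM. The part of these markers and of the number of genes detected in the values of the members was not tested.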

How the data were processed

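mRNA of ligated mouse hearts was sequenced in 8 libraries, 4 labelled DAPA and 4 labelled vehicle. A stranded TruSeq mRNA kit and Trimmomatic were used, per the labels' protocols. The submitters' processing notes list Cufflinks, DESeq, HISAT2, HTSeq, SAMtools and StringTie without versions or roles. They name the human assembly GRCh38, although symbols and identifiers are of mouse genes. No coordinates from the files are therefore given, and the sequences are credited to RefSeq GRCm38.p6. The authors deposited FPKM per library, with a ratio (fold) of DAPA over vehicle and a q-value of their own comparison.

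FPKM was used as deposited: log2(FPKM + 1), with a pseudocount of 1, went into limma-trend (R 4.3.3 with limma 3.58.1) for the 11496 genes of mean FPKM 1 or more in a group, with group as the only term, two-sided, at an adjusted p of 0.05. The fit was tested on simulated data. Whole reads, recovered from the steps in the FPKM values, gave depth and counting intervals. For each of the 17356 genes with a value above 0 they were the smallest whole numbers that matched within 0.0001 reads. A match was the condition for acceptance, so it does not test the counts. A gene with a value in only 1 library is always given 1 read. Alternatives were 2 pseudocounts, 2 filters, 2 scalings, a replicate block, limma voom on recovered reads, and leaving out each library. Named genes were the members, the other S100 genes with reads, genes of small p from each list with the neutrophil markers, and the 3 closest by correlation; S100a2, S100a7l2, S100z and further list genes were named after their values were seen. The members and gene lists were chosen with earlier results of these data known. A few genes of the lists are not reported here by name.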

Additional observations from a re-analysis of the deposited data

Results flagged for a closer look

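S100b in the vehicle libraries was the 1 value among 20 groups of 4 libraries examined (9 members and S100b, in both groups) whose extreme library stood far from the others: vehicle library 2 measured 2.47 FPKM, on 110 reads, and the gap to the next library was 0.872 of the whole range, above the 95% limit of Dixon's test for 4 samples. Chance marks about 1 in 20 groups in this way. The same library was the highest vehicle library for 7 of the 9 members, a count not taken over all genes.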

How the results depend on the processing

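All 16 alternatives kept the sign of the estimates of all members but S100a6, whose log2 change of -0.03 became 0.0008 without DAPA library 4 and 0.0296 without vehicle library 2; leaving out each library in turn gave -0.0754 to 0.0296, never past the threshold. Depending on which library was left out, 0 to 2 members were called. With no filter on low values, and with median-ratio scaling, 0 members were called (S100a16 adjusted p = 0.0772 and 0.0656); without the filter, 17356 genes share the adjustment. S100a16 kept its call in 7 of 16 alternatives (adjusted p 0.0151 to 0.12). S100a8 was called in 3 (0.00269 to 0.208) and S100a9 in 1 (0.0104 to 0.266), so a count of 1 member does not always mean S100a16. The replicate numbers did not pair the libraries (correlations of same-numbered libraries -0.055 to 0.014); with the replicate block 1 member was called, S100a8 at 0.00269, and S100a16 was not (0.0504). The cause of these shifts was not tested. The median change of all genes moved by less than 0.1 under every scaling. Of 256 list counts, 27 moved by more than 1.5 times. Depth limits S100a8 and S100a9, with 6 to 60 reads a library.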
